A study of Homo sapiens with 24 samples.

Results

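*CYSRT1* (ENSG00000197191) and *RNF224* (ENSG00000233198) are neighbouring protein-coding genes on the plus strand of chromosome 9. They were picked out of a table of gene levels because both rose by a very large amount after palmitic acid. The table gives 57979 Ensembl genes in FPKM, a fragment count scaled to transcript length and to the size of the library, and these are 2 of them. The values that chose them are their own rises over 0 h, so those rises are described below without a test.

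The RNA came from Huh7, an established human hepatoma (liver cancer) line. It was either wild type (WT) or knockout (KO) for *ABHD6*, a lipid hydrolase of the alpha/beta hydrolase domain family. WT 0 h and KO 0 h are WT and *ABHD6* KO cells in basal medium, harvested before treatment. WT 24 h, KO 24 h, WT 48 h and KO 48 h are the same genotypes after that many hours in palmitic acid, which is a saturated fatty acid, at 800 µM. There are 24 libraries, 4 for each of the 6 groups. No group stayed untreated for 24 or 48 h, so palmitic acid and time in culture cannot be told apart in any rise over 0 h. The labels do not say how many KO clones were used, nor whether replicates were grown as separate cultures, so a p-value measures only the spread between these libraries, which may be technical. The treatment protocol names a harvest of treated plates on day 1 only, and the 48 h groups are taken from the sample titles and the study design.

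The product of *CYSRT1* is a small protein with a tail rich in cysteine, known from the cornified outer layers of skin, and no liver role for it is assumed here. *RNF224* encodes a RING finger protein, a little studied member of a family in which cysteine and histidine residues hold zinc and which often act as ubiquitin ligases. Genes that lie end to end on one strand can share transcription: RNA polymerase may pass the end of one gene and read through the next, and such read-through is known to increase in stressed cells. Transcripts from the opposite strand of the same stretch can also be counted for a gene when strand is not kept apart.

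The coding sequences show what the gene products are named for. In GRCh38, *CYSRT1* spans chr9:137224635-137226311 with 2 exons and 1297 exon bases, and its coding sequence has 184 codons, of which 18 (9.78%) are cysteine. Its last 29 codons, 156 to 184, at chr9:137225967-137226053 on the plus strand, hold 15 of the 18, shown with the cysteine codons in capitals.
CYSRT1 coding end: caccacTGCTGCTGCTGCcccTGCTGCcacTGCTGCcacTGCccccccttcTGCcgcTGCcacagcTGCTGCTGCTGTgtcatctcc
*RNF224* spans chr9:137227271-137229638 with 3 exons and 1798 exon bases, and its coding sequence has 156 codons. The stretch of 47 codons from 24 to 70, at chr9:137228685-137228825 on the plus strand, holds 8 codons with the spacing of a RING finger, shown in capitals, 7 for cysteine and 1 for histidine.
RNF224 RING stretch: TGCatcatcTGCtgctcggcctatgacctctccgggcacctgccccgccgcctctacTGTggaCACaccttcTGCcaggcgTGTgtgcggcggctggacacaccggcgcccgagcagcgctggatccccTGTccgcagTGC
Both stretches lie in the last exon of their gene. GENCODE release 29 gives each gene 1 transcript and no exon of either overlaps an annotated gene of the opposite strand. The 2 genes are 959 bases apart, and the next plus-strand gene, *SLC34A3*, which encodes a sodium and phosphate cotransporter of the kidney, starts 1118 bases after *RNF224*. The 3 genes together cover 11920 bases.

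The libraries are shallow. Low FPKM values step by single fragments, and those steps put the libraries at an estimated 397606 to 728940 fragments, with group means of 439744 (WT) and 435623 (KO) at 0 h and 588388 to 677146 later. At that depth 1 fragment is worth 1.06 to 1.94 FPKM on *CYSRT1* and 0.763 to 1.40 FPKM on *RNF224*. *ABHD6* was above 0 in only 7 of 24 libraries, 3 of them KO 48 h, so it does not check the genotype labels. Hepatocyte markers were all present, with the summed FPKM of the 10 between 835.1 and 2015, and 7 of 10 keratinocyte markers were listed at 0 in every library. Zeros need care in this table: *MT-CO1*, a mitochondrial gene that every cell uses, was listed at 0 in 16 of the 16 libraries after 0 h. For that reason FPKM levels of groups with a library listed at 0 are given by library, with no mean and SD, while the fitted log2 differences include those libraries.

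The strand that the values count is uncertain. The library kit keeps strand, but no source used here says how strand was treated when fragments were assigned to genes. Antisense genes took up 44.0% to 58.1% of all FPKM in a library. *AC006064.4*, antisense to *GAPDH*, averaged 37290 FPKM per length against 239 for *GAPDH*. Among the 13 mitochondrial protein-coding genes, *MT-ND6*, which alone lies on the minus strand, had the highest mean over the 24 libraries, 32674 FPKM, against 138.6 to 19013 for the other 12. The order was not the same in every group: in KO 48 h the plus-strand gene *MT-ATP8* averaged 38547 FPKM against 34589 for *MT-ND6*. *MT-ND6* exceeded the sum of the other 12 in 6 of 24 libraries. Of these, 3 were WT 48 h libraries, a group where *MT-ATP6*, *MT-ATP8* and *MT-CO3* averaged 0 FPKM, which lowers that sum. These zeros, like those of *MT-CO1*, also lower the means of their genes over the 24 libraries. Which strand was counted was not tested. Had the opposite setting been used, the values of *CYSRT1*, *RNF224* and *SLC34A3* would count RNA of the strand opposite to these genes, and a table of 1 value per gene cannot tell the 2 apart. The names below therefore stand for the rows of the table.

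Before treatment both genes were low. In WT 0 h, *CYSRT1* was listed at 0, 9.99, 2.39 and 2.18 FPKM in the 4 libraries, and in KO 0 h at 4.44, 7.35, 0 and 2.61 FPKM. With 1 fragment worth an estimated 1.53 to 1.94 FPKM in the 0 h libraries, few fragments set their order. The values of 2.18, 2.39 and 2.61 FPKM came to 1.32, 1.42 and 1.41 estimated fragments, so these estimates are rough. *RNF224* was steadier, at 5.93, 5.18, 7.37 and 8.26 FPKM in WT 0 h and 6.23, 5.10, 5.76 and 5.32 FPKM in KO 0 h. Its means were 6.69 ± 1.39 (SD, n = 4) and 5.60 ± 0.503 FPKM (SD, n = 4), on 5.33 and 4.37 fragments. The WT and KO libraries overlapped for both genes.

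After 24 h *CYSRT1* stood at 69.5, 87.1, 76.4 and 74.9 FPKM in WT and at 79.3, 127, 53.0 and 72.4 FPKM in KO. The means were 77.0 ± 7.35 and 83.0 ± 31.5 FPKM (SD, n = 4 each). *RNF224* reached 80.9, 91.7, 77.6 and 72.2 FPKM in WT and 69.2, 81.7, 80.5 and 47.3 FPKM in KO. Every treated library of either genotype lay above every 0 h library of that genotype, a pattern that 3.66% of all tested genes showed for WT and 4.48% for KO at 24 h. At 48 h the shares were 5.01% and 6.25%. The lowest WT library at 24 h was 6.96 times the highest at 0 h for *CYSRT1* and 8.74 times for *RNF224*, and in KO these ratios were 7.22 and 7.59. The mean of *RNF224* at 24 h was 80.6 ± 8.20 FPKM in WT and 69.7 ± 15.9 FPKM in KO (SD, n = 4 each).

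At 48 h both genes were higher again. *CYSRT1* was at 158, 218, 286 and 171 FPKM in WT and at 160, 151, 190 and 158 FPKM in KO, with means of 208 ± 58.0 and 165 ± 17.4 FPKM (SD, n = 4 each). *RNF224* was at 177, 211, 214 and 137 FPKM in WT and at 173, 168, 172 and 157 FPKM in KO, with means of 185 ± 35.9 and 167 ± 7.58 FPKM (SD, n = 4 each). No library at 48 h overlapped one at 24 h of the same genotype, which held for 1.91% of all tested genes in WT and 2.43% in KO. The closest approach was *CYSRT1* in KO, where the lowest library at 48 h was 1.19 times the highest at 24 h. The spread of *RNF224* in WT at 48 h (coefficient of variation 19.4%) exceeded the 6.90% that fragment counting alone would give, while that in KO (4.53%) was below its 7.01%.

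**Figure D1:**
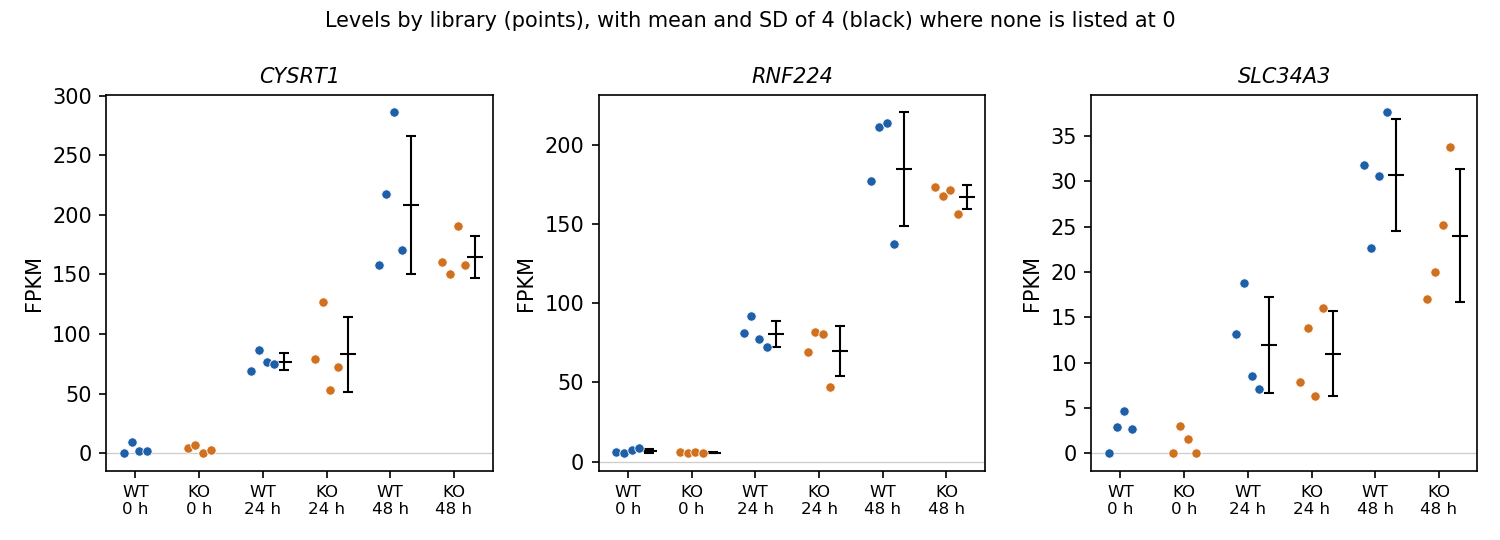
FPKM of *CYSRT1*, *RNF224* and *SLC34A3* in the 4 libraries of each group (points; blue WT, orange KO), with the mean and SD in black for groups where no library is listed at 0. The axes differ between panels; *CYSRT1* and *RNF224* lie under 10 FPKM at 0 h and from 137 to 286 FPKM at 48 h, and *SLC34A3* reaches 37.6 FPKM.

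On the log2(FPKM + 0.5) scale, where a difference of 1 is a doubling and low levels are understated, *CYSRT1* differed from 0 h by 4.93 ± 0.68 (SE) at 24 h and 6.33 ± 0.68 at 48 h in WT. In KO the differences were 4.83 and 5.88, with the same SE. *RNF224* differed by 3.51 ± 0.20 and 4.69 ± 0.20 in WT and by 3.49 and 4.78 in KO. The standard errors come from a model fitted with limma over 17252 genes that averaged at least 0.5 FPKM, which pools the spread of the 6 groups. Ordered by these differences from the highest, *CYSRT1* stood 2nd at 24 h and 1st at 48 h in WT, and 9th and 1st in KO. *RNF224* stood 24th and 7th in WT, and 50th and 12th in KO. These ranks are the choice itself, and nothing is read from them. The choice names no threshold.

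The size of the *CYSRT1* difference moves with its near-zero start. Without WT 0 h replicate 0, the library listed at 0, the WT difference was 4.16 at 24 h and 5.55 at 48 h, and without replicate 1, the highest, it was 5.62 and 7.01. In KO the same held: without KO 0 h replicate 2, listed at 0, the difference was 4.01 at 24 h and 5.06 at 48 h. With the pseudocount at 0.1 the WT difference at 48 h was 7.03, and at 1 it was 5.95. For *RNF224*, which had fragments in every library at 0 h, the range over other pseudocounts, filters and scalings was 4.59 to 4.81. On mean FPKM *RNF224* at 48 h was 27.6 times its 0 h mean in WT and 29.9 times in KO. From 24 h to 48 h the differences were smaller, at 1.39 (WT) and 1.05 (KO) for *CYSRT1* and 1.18 and 1.29 for *RNF224*, where *CYSRT1* ranked only 929th and 1668th of the 17252 genes. By level, *RNF224* moved from place 6822 at WT 0 h to place 578 at WT 48 h, where *CYSRT1* stood at place 515.

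**Figure D2:**
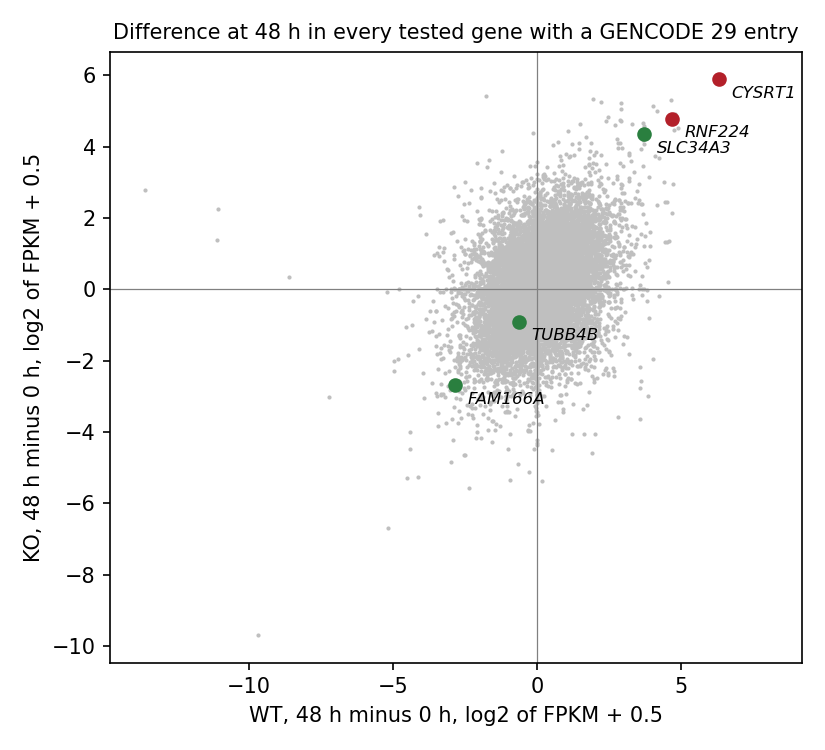
Difference of 48 h from 0 h in WT (horizontal) against KO (vertical), both on the log2(FPKM + 0.5) scale, for the 17162 tested genes with an entry in GENCODE 29 (grey). *CYSRT1* (6.33 and 5.88) and *RNF224* (4.69 and 4.78) are red, and the neighbours *SLC34A3*, *TUBB4B* and *FAM166A* are green; WT and KO differ in libraries, but each axis uses its own 0 h group.

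The comparison of genotypes was not used in choosing the genes. No difference between KO and WT was called for either gene at any time, where a call is a Benjamini-Hochberg adjusted p below 0.05 over all 17252 genes. Such calls were rare over all genes, at 0.0985% at 0 h, 0.0116% at 24 h and 0.0638% at 48 h. For *CYSRT1* the KO minus WT difference at 0 h was 0.14 on the log2 scale (95% interval -1.27 to 1.56, limma adjusted p = 1). It was 0.04 at 24 h (-1.37 to 1.45, limma adjusted p = 1) and -0.30 at 48 h (-1.72 to 1.11, limma adjusted p = 1). As fitted, these intervals are wide enough to hold a doubling in either direction. Their SE pools all 6 groups, including the 0 h groups, where *CYSRT1* is listed at 0 in 1 library of each genotype. The coefficient of variation was 9.55% (WT) and 38.0% (KO) at 24 h, and 27.9% and 10.6% at 48 h. At 0 h it was 120% and 85.9%. The SE may therefore be too large at 24 h and 48 h, and the width there mostly reflects the 0 h spread.

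For *RNF224* the intervals were narrower. KO minus WT was -0.22 at 0 h (95% interval -0.63 to 0.20, limma adjusted p = 0.883), -0.24 at 24 h (-0.65 to 0.18, limma adjusted p = 0.986) and -0.12 at 48 h (-0.54 to 0.29, limma adjusted p = 0.978). A doubling or halving lay outside all of them as fitted. At 0 h, though, the coefficient of variation of *RNF224* was 20.8% in WT and 8.97% in KO. Fragment counting alone would give 43.3% and 47.85% there. The SE may therefore be too small at 0 h, and a halving at that time cannot be set aside. The intervals for its rise rest on the same 0 h libraries. All 3 estimates were below 0, and all 3 intervals included 0.

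The rise itself was also compared between genotypes, as the KO difference from 0 h minus the WT difference. Over all genes this was called for 0% at 24 h and 0.0522% at 48 h. *RNF224* gave -0.02 at 24 h (95% interval -0.60 to 0.57, limma adjusted p = 1) and 0.10 at 48 h (-0.49 to 0.68, limma adjusted p = 0.984). *CYSRT1* gave -0.10 (-2.10 to 1.90, limma adjusted p = 1) and -0.44 (-2.44 to 1.56, limma adjusted p = 0.962). An effect of the knockout on the rise was not detectable at this depth, and for *CYSRT1* the interval leaves room for a difference of more than 4-fold.

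The levels of the 2 genes, which FPKM puts on a common per-length scale, were close once raised. The ratio of *RNF224* to *CYSRT1* was 1.05 ± 0.0848 in WT 24 h and 0.922 ± 0.412 in KO 24 h (SD, n = 4 each). At 48 h it was 0.911 ± 0.170 in WT and 1.02 ± 0.0947 in KO. The genotypes did not differ in this ratio beyond the spread: KO minus WT was -0.28 on the log2 scale at 24 h (two-sided exact permutation p = 0.343, adjusted over both times 0.343) and 0.18 at 48 h (exact permutation p = 0.314, adjusted 0.343). The smallest p that 4 against 4 libraries allow is 0.0286. At 0 h the ratio cannot be given for every library, because *CYSRT1* is listed at 0 in 1 of each genotype.

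**Figure D3:**
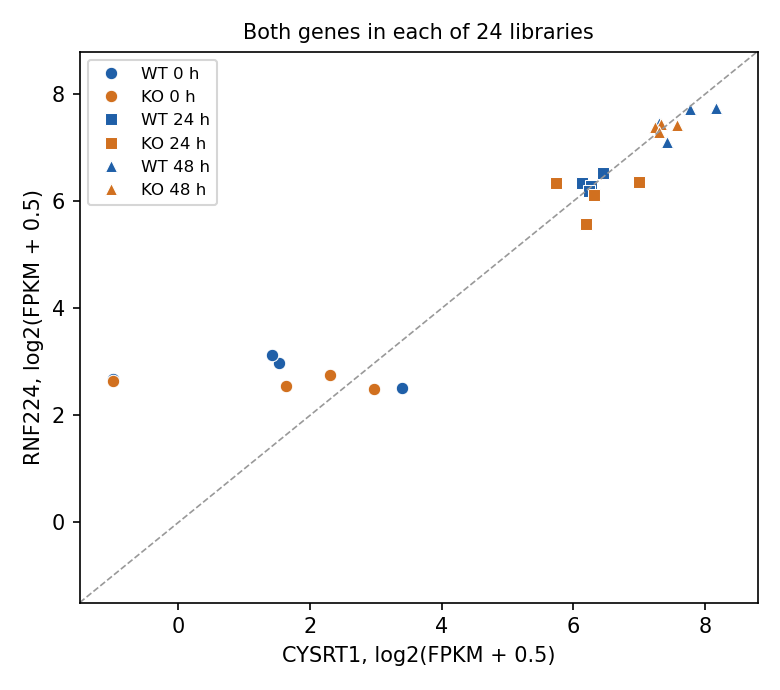
log2(FPKM + 0.5) of *RNF224* (vertical) against *CYSRT1* (horizontal) in the 24 libraries; colour gives the genotype, shape the time, and the dashed line equal levels. The 16 libraries after 0 h lie close to the line, and the 8 at 0 h spread along the *CYSRT1* axis, with 2 at the value of a listed 0.

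Across the 24 libraries the log2 levels of the 2 genes had a Pearson correlation of 0.936, which mostly repeats the differences between the groups. Within the groups at 24 h and 48 h, the deviations of the 16 libraries from their group means had a correlation of 0.404. The same figure was 0.297 between *CYSRT1* and *SLC34A3* and -0.275 between *RNF224* and *SLC34A3*. Libraries share depth and scaling, so these are descriptions only.

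Neighbours were chosen by position alone, as all genes within 50 kb of the pair. Of 14 annotated, 13 were in the table and 11 averaged at least 0.5 FPKM and were tested. *SLC34A3*, the next gene downstream on the same strand, was the only one called higher, and it was called in all 4 comparisons with 0 h. Over all genes the share called higher was 1.46% for WT 24 h, 2.57% for WT 48 h, 2.13% for KO 24 h and 3.4% for KO 48 h. The 24 h and 48 h comparisons of a genotype share its 0 h libraries.

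*SLC34A3* was far lower than the pair. It was listed at 0, 2.94, 4.71 and 2.70 FPKM in WT 0 h and at 0, 3.02, 1.61 and 0 FPKM in KO 0 h. It reached 13.2, 18.8, 8.50 and 7.15 FPKM in WT 24 h and 7.86, 13.9, 6.31 and 15.99 FPKM in KO 24 h. In WT 48 h it was at 31.8, 22.6, 30.6 and 37.6 FPKM, and in KO 48 h at 17.0, 19.97, 25.2 and 33.8 FPKM. No treated library overlapped the 0 h libraries of its genotype, a pattern that 3.66% (WT) and 4.48% (KO) of all tested genes showed at 24 h. At 48 h the shares were 5.01% and 6.25%. The 48 h libraries lay above those at 24 h, which held for 1.91% of all tested genes in WT and 2.43% in KO. The margins were narrow. The lowest library at 24 h was 1.52 (WT) and 2.09 (KO) times the highest at 0 h. The lowest at 48 h was 1.201 (WT) and 1.06 (KO) times the highest at 24 h. On the log2 scale *SLC34A3* rose by 3.73 in WT (limma adjusted p = 0.00057) and by 4.34 in KO (limma adjusted p = 5.43e-05) at 48 h.

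At 24 h *SLC34A3* rose by 2.33 ± 0.64 (SE) in WT (limma adjusted p = 0.0408) and by 3.21 in KO (limma adjusted p = 0.00297). The WT call at 24 h was lost in 7 of the 8 fits with 1 library left out, all but that without WT 0 h replicate 2. The highest limma adjusted p was 0.155, without WT 0 h replicate 0, which is listed at 0. Without that library the rise was 1.59 at 24 h and 2.99 at 48 h, and the call at 48 h held in all 8 such fits. The KO call at 24 h was lost in a fit of the 2 groups alone (limma adjusted p = 0.0808). Per length, the ratio of *SLC34A3* to *RNF224* averaged 0.144 in WT 24 h, 0.175 in KO 24 h, 0.176 in WT 48 h and 0.145 in KO 48 h. So the row next to the pair rose in the same libraries but stayed well below the level of *RNF224* per base. For *SLC34A3* no difference between KO and WT was called (-0.37 at 48 h, 95% interval -1.70 to 0.96, limma adjusted p = 0.983).

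Beyond *SLC34A3* the direction changed. *TUBB4B*, a beta-tubulin gene, starts 4658 bases further on the plus strand, and *FAM166A*, known from cilia and sperm tails, runs towards it on the minus strand, so that they share 124 bases of exon. *FAM166A* averaged 65.5 ± 11.1 FPKM in WT 0 h and 63.9 ± 18.7 FPKM in KO 0 h (SD, n = 4 each). It stood at 8.84 ± 1.89 FPKM in WT 48 h and 10.6 ± 6.00 FPKM in KO 48 h. It fell by 2.83 on the log2 scale in WT at 48 h (limma adjusted p = 9.76e-05) and by 2.68 in KO (limma adjusted p = 0.000111). *TUBB4B* was called lower in KO only, where it fell by 1.10 at 24 h (limma adjusted p = 0.0116) and by 0.90 at 48 h (limma adjusted p = 0.0281). The KO 24 h call was lost without KO 24 h replicate 3 (limma adjusted p = 0.0541), and the KO 48 h call without any 1 of 4 libraries (KO 0 h replicates 0, 2 and 3 and KO 48 h replicate 0; highest limma adjusted p = 0.0965). In WT its difference at 48 h was -0.63 (limma adjusted p = 0.178), and the test of the KO response minus the WT response gave -0.28 (limma adjusted p = 0.92). Reads from the shared bases cannot be assigned to 1 of the 2 genes if strand was not kept.

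On the other side, *RNF208*, a RING finger gene on the minus strand, lies 3053 bases before *CYSRT1*, and the 2 genes point away from each other. It was listed at 0 in 23 of 24 libraries and at 2.28 FPKM in 1 KO 48 h library. The 8 other tested neighbours (*ANAPC2*, *SSNA1*, *TPRN*, *TMEM203*, *NDOR1*, *STPG3*, *NELFB* and *TOR4A*) were called in none of the 4 comparisons with 0 h. *NDOR1* is the nearest tested plus-strand gene upstream of *CYSRT1*. The plus-strand gene *BX255925.3*, annotated between *NDOR1* and *RNF208*, was not analysed here. In all, 1 neighbour of 11 was called lower in each WT comparison and 2 in each KO comparison. Over all genes 2.6% (WT 24 h), 4.22% (WT 48 h), 3.51% (KO 24 h) and 6.42% (KO 48 h) were called lower. The median log2 difference of the 11 neighbours was -0.34 in WT 48 h and -0.72 in KO 48 h, against 0 over all genes tested.

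**Figure D4:**
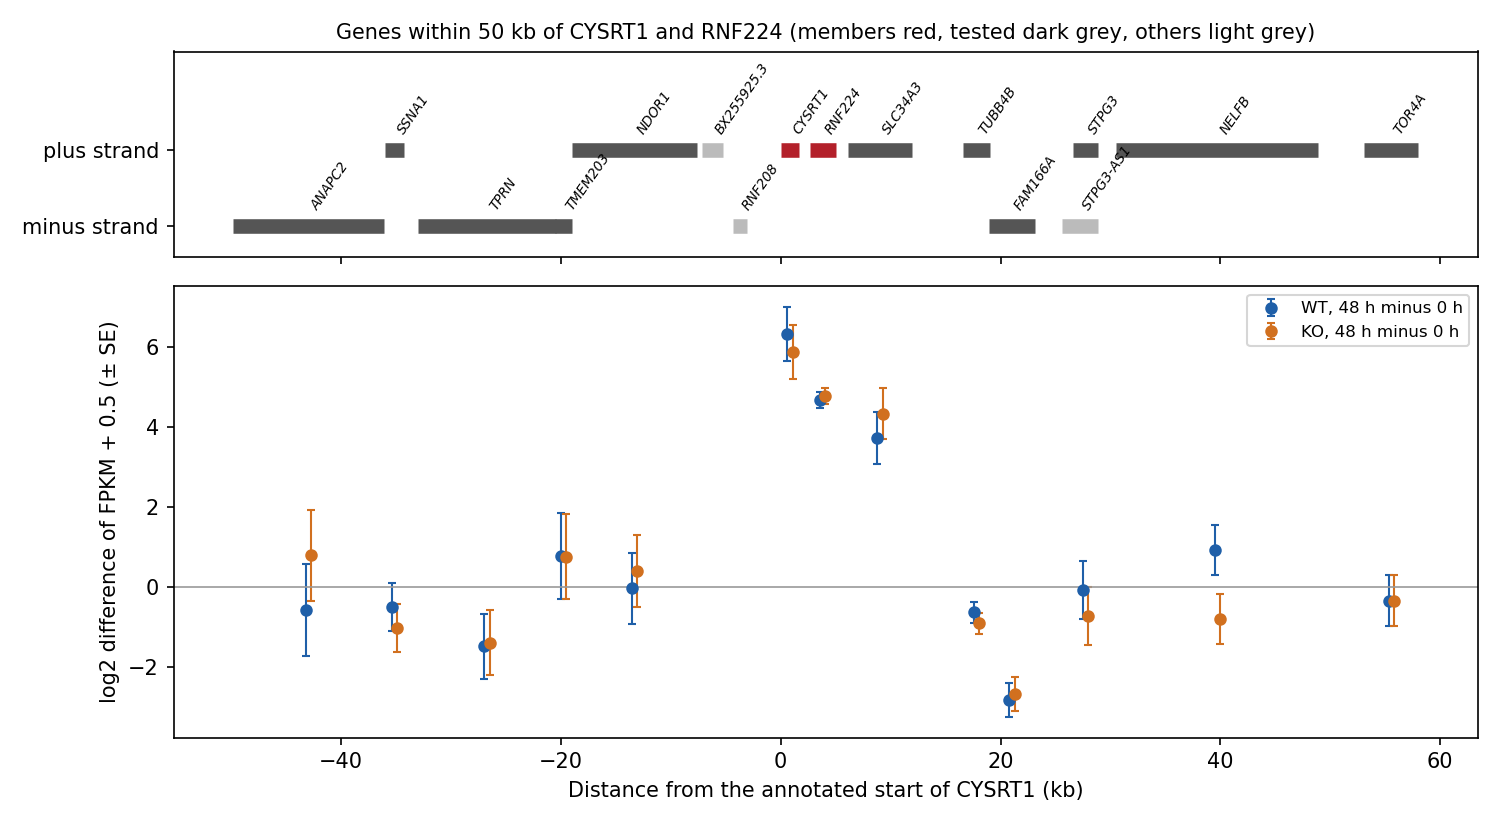
Upper panel, genes within 50 kb of the pair by strand and distance in kb from the annotated start of *CYSRT1*; lower panel, their difference of 48 h from 0 h on the log2(FPKM + 0.5) scale (± SE) in WT (blue) and KO (orange). *CYSRT1*, *RNF224* and *SLC34A3* stand at 3.73 or higher in both genotypes, and *FAM166A* stands at -2.83 and -2.68.

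The 3 rows that rose lie side by side, with no annotated gene on the opposite strand. The closest annotated minus-strand genes are *RNF208* before them and *FAM166A*, whose nearest base is 7029 bases beyond the end of *SLC34A3*. Neither was called higher: *RNF208* was too low to test and *FAM166A* fell. Whether 1 transcript runs through the 3 genes, from either strand, was not tested, since the table holds no reads between genes.

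Neighbouring genes that both rise were counted over this table. Of 965 pairs of tested genes next to each other on the same strand and at most 2 kb apart, both members were called higher by at least 2-fold at 48 h in both genotypes in 4 (0.415%). In 22 pairs at least 1 member was. Of the 4 pairs, *CYSRT1* with *RNF224* is the choice itself. *RNF224* with *SLC34A3* is the next pair along and also holds a gene chosen for its rise. The other 2 are *MT-ND1* with *MT-ND2*, in the mitochondrial genome, and *MTND1P23* with *MTND2P28*, nuclear copies that share sequence with them. The call of at least 2-fold higher covered 2.13% of all genes in WT 48 h and 2.93% in KO 48 h. The pairs need the call in both genotypes, which 164 of the 17162 tested genes with a GENCODE 29 entry had. Whether 4 pairs are more or fewer than calls scattered over the genes would give was not tested.

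The genes most like the pair over the 24 libraries were found by Pearson correlation of log2 levels. Such a correlation mostly repeats the differences between the groups, including the rises by which the pair was chosen. Apart from *RNF224* itself, the 6 most like *CYSRT1* were *MT-ND2* (0.935), *AL031600.3* (0.934), ENSG00000279576.1 (0.926), *MT-CYB* (0.918), *MT-CO2* (0.918) and *AC005005.3* (0.916). The 6 most like *RNF224* were *AC005005.3* (0.974), *MT-CO2* (0.966), *MT-ND1* (0.962), *RTEL1-TNFRSF6B* (0.960), *MT-ND2* (0.958) and *CKAP4* (0.948), with *CYSRT1* 14th at 0.936. The adjacent gene *SLC34A3* stood 23rd for *CYSRT1* (0.880) and 40th for *RNF224* (0.884). Among the genes listed, *AC005005.3* and *AL031600.3* are annotated as antisense genes, and *RTEL1-TNFRSF6B* is an annotated read-through gene. Whether these annotations bear on the likeness was not tested.

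The levels of these rows spanned a wide range. *MT-CO2* averaged 1083 FPKM in WT 0 h and 5261 FPKM in WT 48 h, and ENSG00000279576.1 averaged 1154 and 7171 FPKM. *AC005005.3* averaged 38.3 FPKM in WT 0 h and 190.0 FPKM in WT 48 h, and *RTEL1-TNFRSF6B* 6.27 and 45.0 FPKM. *CKAP4*, a protein of the endoplasmic reticulum membrane, averaged 19.2 and 68.5 FPKM. The summed share of mitochondrially encoded genes also moved with time, from 3.20% to 4.43% of summed FPKM in the 0 h libraries to 10.4% to 14.9% later. The share of antisense genes went from 56.1% or more at 0 h to 48.8% or less. The part of these shifts in the rises of *CYSRT1* and *RNF224* was not tested.

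Most genes listed as related to the pair by family, name or epidermal role were too low to test. Of 11 RING finger relatives of *RNF224*, 3 were listed at 0 in every library and 4 were tested, and none was called in any comparison with 0 h, against 4.06% (WT 24 h), 6.79% (WT 48 h), 5.64% (KO 24 h) and 9.82% (KO 48 h) of all genes called in either direction. With 4 genes tested at such shares, the absence of a call says little about these relatives. The most abundant, *RNF24*, averaged 27.3 FPKM. Of 39 genes of late epidermal differentiation, the program in which *CYSRT1* is known, 35 were listed at 0 in every library and none reached the level for testing. *CYSTM1*, another cysteine-rich tail protein, averaged 5.55 FPKM and was not called (2.10 on the log2 scale in WT 48 h, limma adjusted p = 0.140). Of the 10 keratinocyte markers 2 were tested (*KRT10* and *SFN*) and none was called. *KRT10* differed from 0 h by 3.29 (24 h, limma adjusted p = 0.0695) and 3.03 (48 h, limma adjusted p = 0.0722) in KO. In WT it differed by 0.10 and 0.61. Of the 10 hepatocyte markers none was called higher and 2 were called lower at 24 h, in WT and in KO alike. Over all genes 1.46% (WT) and 2.13% (KO) were called higher at 24 h, and 2.6% and 3.51% lower. At 48 h 5 were called higher and none lower in WT (2.57% and 4.22% of all genes), and 3 higher and 1 lower in KO (3.4% and 6.42% of all genes).

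Sequence before the starts annotated by RefSeq was examined because the pair moved together. RefSeq (GRCh38.p14) places the starts at 137225174 for *CYSRT1* and 137227502 for *RNF224*, both inside the first exon that GENCODE gives. The 250 bases before each start had 66.8% and 66% G or C. The *CYSRT1* stretch, from 137224924, lies wholly inside the GENCODE exon, which starts at 137224635. Laid on the GENCODE exons, the *CYSRT1* coding sequence of 184 codons begins before the RefSeq start at 137225174. The last bases of the *CYSRT1* stretch are therefore coding in that model. The RefSeq start and the 184 codons cannot belong to the same transcript, and which start is used in these cells was not tested. The *RNF224* stretch, from 137227252, lies mostly inside its exon, which starts at 137227271. Bases before these stretches were not searched. In these windows 6 motifs were searched on both strands. They were TGATGNAA, bound by ATF4 with CHOP, and TGACGTCA, the cyclic AMP response element. The others were CCACG, part of the endoplasmic reticulum stress element, and TGACNNNGC, the antioxidant response element. The last were TATAAA, the core promoter box, and AGGTCA, bound by nuclear receptors. None was found in the stretches of both genes, and none in the 250 bases before any of the RefSeq starts of *SLC34A3*. *CYSRT1* had 1 match, to TGACNNNGC on the minus strand, in the window chr9:137224970-137224999, a motif in 10.9% of 35116 promoters of that length. *RNF224* had 1 match, to CCACG, in the window chr9:137227349-137227378, a motif in 33.5% of those promoters. Both windows are shown on the plus strand with the match in capitals.
CYSRT1 window: gatgtgagggGCTGAGTCActggtttggca
RNF224 window: cccaggccagCCACGagaacttgtctgacc
A match of letters is a description of the sequence, and with the strand of the counted RNA uncertain it is not tied to the rises.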

How the data were processed

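RNA from the 24 Huh7 samples was made into libraries with a directional mRNA kit, per the labels' protocols. The deposited table holds FPKM values, made by the authors with STAR, Cufflinks and Cuffdiff on GRCh38, per the submitters' processing notes. Versions, the strand setting and any scaling between libraries are not given in the sources used here. Of 58024 rows, 45 copies of the shared X and Y region, all 0, were left out, and 57375 rows (99%) matched GENCODE release 29 by ID without version. Fragment numbers are estimates from the FPKM steps, not counts.

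Values were analysed as log2(FPKM + 0.5) with limma 3.58.1 in R 4.3.3: 6 group means, no covariate, moderated variances with an intensity trend, and Benjamini-Hochberg adjustment over the 17252 genes averaging at least 0.5 FPKM (40727 were below). The pooled spread has 18 residual degrees of freedom. On simulated data for WT 48 h against 0 h over 17252 genes, 6 of 74 genes changed by 2-fold, 31 of 73 by 4-fold and 38 of 53 by 8-fold were recovered, and 6 of 81 calls were unchanged genes. The simulation drew log2 values with a normal spread for each gene and changed only genes above a set level at WT 0 h. It did not model the steps of single fragments, so its rates may not hold for rows of few fragments, such as *CYSRT1* and *SLC34A3* at 0 h. Ratios were compared by exact permutation.

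The genes named are the pair, all genes within 50 kb, the 6 most like each member by correlation, and the lists of RING finger, late epidermal, cysteine-rich, hepatocyte and keratinocyte genes. The members and lists were chosen with earlier results of these data known. Alternatives were other pseudocounts, filters, scalings and windows, no variance trend, fits of the compared groups alone, a replicate block, and fits without 1 library.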

Additional observations from a re-analysis of the deposited data

Results flagged for a closer look

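A library stood far from the other 3 of its group in 11 of the 78 gene-by-group sets examined, and in none of the 12 sets of *CYSRT1* and *RNF224*. Chance gives about 1 in 20 for values with a normal spread. That rate does not hold for rows of few fragments, where a group with 3 libraries at 0 and 1 above 0 is always flagged. All 11 were neighbouring genes, most of them near the level of a few fragments. The highest library set apart was at 20.1 FPKM for *ANAPC2* in WT 0 h, 1.42 FPKM for *TPRN* in WT 48 h, 1.83 FPKM for *TMEM203* in KO 0 h and 24.0 FPKM for *STPG3* in KO 24 h. It was at 6.15 FPKM for *NELFB* in WT 48 h and 2.51 FPKM for *TOR4A* in KO 24 h. *NDOR1* had such a library in 4 groups, at 2.97 FPKM in KO 0 h, 2.23 FPKM in KO 24 h, 2.91 FPKM in WT 0 h and 2.65 FPKM in WT 48 h. For *TUBB4B* in KO 0 h it was the lowest library, at 37.7 FPKM.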

How the results depend on the processing

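The rises of *CYSRT1* and *RNF224* kept their direction in all alternatives run, and no comparison of KO with WT for either gene was called in any. Without 1 library, *CYSRT1* differed from 0 h by 4.16 to 5.62 (WT 24 h), 5.55 to 7.01 (WT 48 h), 4.01 to 5.33 (KO 24 h) and 5.06 to 6.38 (KO 48 h) on the log2 scale. Its uncalled KO minus WT difference changed sign, at -0.64 to 0.97 (0 h) and -0.19 to 0.23 (24 h), as did the difference in response, at -0.93 to 0.68 (24 h) and -1.27 to 0.33 (48 h). For *RNF224* the difference in response was -0.12 to 0.16 (24 h) and -0.039 to 0.203 (48 h).

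The number of neighbours called was less steady. Higher in WT 24 h it was 0 with pseudocount 0.1, no filter, quantile normalization, no variance trend and only the groups compared, and 0 to 1 with 1 library left out. With only the groups compared, KO 24 h had 0 higher and 1 lower. In KO 48 h, 2 were higher in a window of 100 kb, where *BX255925.1* joined *SLC34A3* (named after its value was seen). In KO 48 h, 1 was lower with median-of-ratios rescaling, quantile normalization, no variance trend and only the groups compared. With 1 library left out, 1 to 2 were lower in WT 24 h (2 without WT 24 h replicate 1), KO 24 h (1 without KO 24 h replicate 3) and KO 48 h. *FAM166A* kept its calls in all.

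Libraries with the same replicate number did not deviate together: over 3341 genes the median correlation of 60 such pairs was 0.0078, and 4 were above 0.1. The fit with replicate number as a block gave 6.33 for *CYSRT1* and 4.69 for *RNF224* in WT 48 h and changed no call. Depth limits the 0 h levels of *CYSRT1* and *SLC34A3*, which rest on few fragments.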
